A study of Homo sapiens with 12 samples.

Results

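The genes described here are CMC1, its overlapping neighbour AZI2, and 8 other genes whose products help build cytochrome c oxidase: CMC2, COA3, COX14, COX17, SURF1, SCO1, COX10 and COX15. They were taken by gene name from the deposited table, which gave 10 of its 58884 genes, and all 10 were measured in all 12 libraries and kept by the filter on low counts. CMC1 was chosen because its count fell in HCC-LM3 knockout cells, and AZI2 because its gene runs into CMC1, so both are described without a test in every comparison that includes an HCC-LM3 group. The other 8 were chosen by what their proteins do. RNA sequencing was done on the human liver cancer lines HCC-LM3 and Huh-7, each as wild-type cells (labelled untreated in HCC-LM3 and given no treatment in Huh-7) and as METTL5-KO cells infected with a guide RNA against METTL5. METTL5 is a methyltransferase that modifies RNA in the small ribosomal subunit. The design asks how the transcriptome differs without it. Each of the 4 groups holds 3 libraries, and no control guide, culture, clone or batch is given for them. Loss of METTL5 therefore cannot be told apart from effects of the guide infection or of a clone, and the p-values measure a spread between libraries that may be technical.

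Cytochrome c oxidase is the last enzyme of the mitochondrial respiratory chain and passes electrons from cytochrome c to oxygen. Its core is made of subunits encoded in mitochondrial DNA, which carry the copper and heme A centres, and nuclear-encoded subunits are added around that core. Assembly starts with the subunit COX1: COA3 and COX14 hold the newly made protein, and CMC1, a small twin CX9C protein of the intermembrane space, stabilises that early complex. Copper comes through the chaperones COX17 and SCO1, heme A is made by COX10 and then COX15, and SURF1 acts in the steps that follow. CMC2 is a relative of CMC1 with the same cysteine motif. AZI2, also called NAP1, is an adaptor of the kinase TBK1 in innate immune signalling and has no known part in oxidase assembly.

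The stretches just upstream of 3 genes are shown because the genes behaved differently: CMC1 moved in opposite directions in the 2 lines, COX17 was higher and COX10 lower in Huh-7 knockout cells. They are the sequences before the first annotated base of each gene, written 5′ to 3′ on the gene's own strand, from RefSeq promoter windows on GRCh38.p14. The CMC1 stretch is chr3:28241369-28241583 on the plus strand (215 bases, 65.6% GC), that of COX17 is chr3:119677455-119677656 on the minus strand (202 bases, 52.5% GC), and that of COX10 is chr17:14069254-14069495 on the plus strand (242 bases, 66.5% GC). Capitals mark the motifs found.
CMC1: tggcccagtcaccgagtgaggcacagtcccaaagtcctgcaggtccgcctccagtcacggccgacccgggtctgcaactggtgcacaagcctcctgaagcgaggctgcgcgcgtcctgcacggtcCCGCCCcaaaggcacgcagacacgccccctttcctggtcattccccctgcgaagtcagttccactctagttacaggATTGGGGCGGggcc
COX17: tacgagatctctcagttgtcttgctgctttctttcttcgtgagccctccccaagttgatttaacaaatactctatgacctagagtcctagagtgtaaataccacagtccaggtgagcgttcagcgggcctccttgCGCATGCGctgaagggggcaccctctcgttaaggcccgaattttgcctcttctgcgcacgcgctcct
COX10: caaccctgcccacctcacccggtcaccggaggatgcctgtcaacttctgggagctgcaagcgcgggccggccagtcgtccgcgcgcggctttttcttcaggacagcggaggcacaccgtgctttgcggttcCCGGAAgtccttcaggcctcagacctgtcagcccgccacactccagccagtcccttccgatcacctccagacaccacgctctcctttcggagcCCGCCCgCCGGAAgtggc
The motifs searched on both strands were the ETS core CCGGAA, the NRF1 motif GCATGCG, the CCAAT box CCAAT and the GC box GGGCGG. NRF1 and ETS-family factors are known regulators of many nuclear genes of the respiratory chain. CMC1 held a GC box on the minus strand and, close to its start, a reversed CCAAT box that overlaps a GC box. COX17 held an NRF1 motif that reads on both strands, and COX10 held 2 ETS cores and a GC box. Over the whole windows (250 bases before to 50 after the RefSeq start), the ETS core was found for 7 of the 10 genes and in 17.2% of 35116 windows in the table. The NRF1 motif was found for 2 of the 10 genes, CMC2 and COX17, and in 3.91% of windows. The CCAAT box was found for 6 genes and in 34.6% of windows, and the GC box for 8 genes and in 45%. CMC2 and COX17 have 2 windows each, and a motif in either was counted. CMC1 held no ETS core and no NRF1 motif in its window. These matches describe letters only.

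The libraries held 17495280 to 26415554 counts in all. The targeted gene METTL5 was at 0 counts in all 6 knockout libraries and between 169.17 and 327.01 in the 6 wild-type libraries. Of 9 hepatocyte markers, HCC-LM3 reached 1 TPM (a transcript abundance scaled to length and depth) in all 3 libraries of a group for HNF4A alone, while Huh-7 passed it for all 9. TTR and SERPINA1 were at 0 in HCC-LM3 wild type, and ALB, APOA2 and TTR were at 0 in its knockout. The summed hepatocyte markers were at 12.3 to 16.62 TPM in HCC-LM3, 14935 to 17211 in wild-type Huh-7 and 12167 to 12309 in its knockout. The 6 fibroblast markers summed to 8.14 to 8.34 TPM in Huh-7 wild-type cells but 0.78 to 2.04 in its knockout, with DCN at 0 in the knockout. Leukocyte markers summed there to 42.75 to 47.01 and 20.3 to 22.39 TPM, with CD68 and LYZ above 1 TPM and PTPRC at 0 in the knockout, and KDR, of 4 endothelial markers, was at 0 in all groups. In HCC-LM3 the same sums went from 17.78 to 19.97 TPM in wild type to 12.36 to 14 in knockout for fibroblast markers (LUM at 0), and from 44.57 to 47.38 to 50.65 to 57.54 for leukocyte markers (PTPRC and CD3E at 0). The part of these markers in the results was not tested. HCC-LM3 wild-type replicate 1 stood apart from replicates 2 and 3, with a mean squared difference per gene of 35.0 and 28.9 times the counting noise against 4.01 between those 2. Where leaving it out changes a count of calls by much, that count is given too. Without it the HCC-LM3 values were −3.22 for CMC1, −0.18 for CMC2 and −0.11 for COX17.

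Levels are given as CPM, counts scaled to library size after trimmed-mean (TMM) normalisation, unless another scale is named. Among 16537 genes with enough counts, the quasi-likelihood test of edgeR called 26.8% different between knockout and wild type in HCC-LM3 and 75% in Huh-7 (adjusted p under 0.05, Benjamini-Hochberg). Of those calls, 52.0% were higher in HCC-LM3 knockout (25.9% with library totals in place of TMM) and 42.3% in Huh-7 knockout (52.7% with DESeq2 size factors and 15.6% with library totals). The median gene stood at a log2 fold change of 0.00 in HCC-LM3 and −0.30 in Huh-7. Library totals moved it by −0.15 and −1.11, and DESeq2 size factors moved it by 0.44 in Huh-7. Directions in Huh-7 are therefore given beside that median and on the other scales. In bulk RNA, fewer cells of a type and less RNA per cell cannot be told apart.

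CMC1 (ENSG00000187118, chromosome 3 from 28241584 to 28325142 on the plus strand of GRCh38) was high in HCC-LM3 wild type and in Huh-7 knockout, and low in the other pair of groups. In HCC-LM3 wild type it held 434.6, 461.93 and 392.47 counts, or 13.8, 12.1 and 11.97 CPM. In HCC-LM3 knockout it held 43.62, 42.04 and 37.68 counts, or 1.30, 1.45 and 1.14 CPM. Every knockout library was thus far below every wild-type library. In Huh-7 the order was reversed: wild type held 44, 51.28 and 38.93 counts (1.61, 2.23 and 1.98 CPM) and knockout 265.41, 197 and 239 counts (26.1, 23.0 and 26.3 CPM). The group means were 12.6 ± 1.02, 1.30 ± 0.157, 1.94 ± 0.313 and 25.1 ± 1.87 CPM (SD, n = 3) in the order given, and no neighbouring groups in that ranking overlapped, although the lowest Huh-7 wild-type library lay close to the highest HCC-LM3 knockout library.

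**Figure D1:**
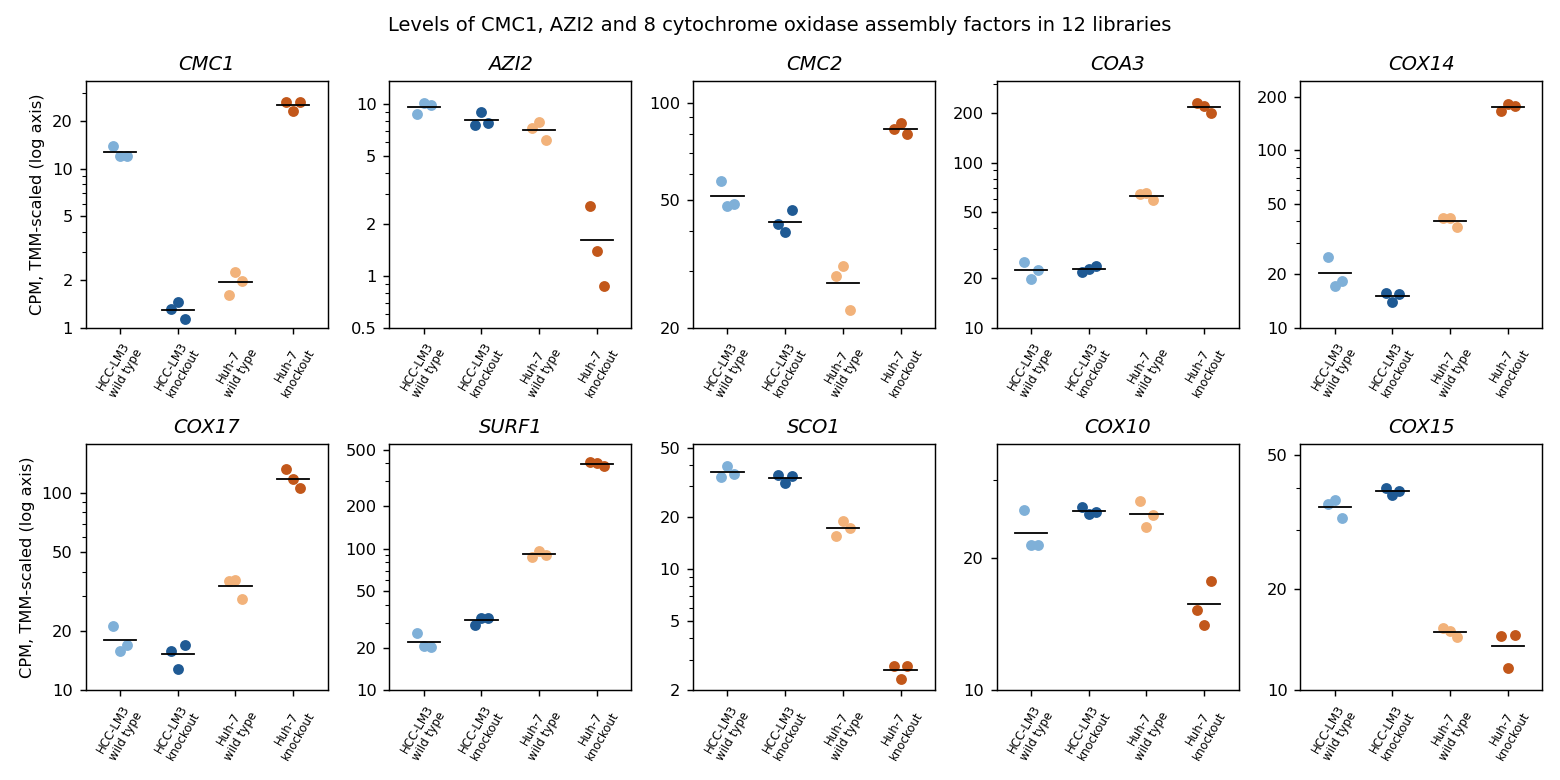
CPM after TMM scaling on a log axis (y) for CMC1, AZI2 and 8 cytochrome oxidase assembly factors in the 4 groups (x); points are the 3 libraries of a group and lines their means. CMC1 lies at 11.97 to 13.8 CPM in HCC-LM3 wild type and 22.95 to 26.3 in Huh-7 knockout, and at 1.14 to 2.23 in the 6 libraries of the other groups.

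The fall of CMC1 in HCC-LM3 knockout was 9.73-fold in CPM, a log2 fold change of −3.28 (SE 0.17), which placed it 17th from the lowest of 16537 genes. No test is given for it, since it chose the gene. In Huh-7, whose groups hold no HCC-LM3 library, CMC1 rose 13.0-fold in CPM, or 3.70 on the log2 scale (SE 0.17, 95% interval 3.31 to 4.09, adjusted p = 5.52e-19, edgeR, higher in 3 of 3 knockout libraries), the 57th highest value of 16537. The fit took its spread and scaling from all 12 libraries, those of HCC-LM3 included. The genes described here were also chosen with earlier results of these data known. This p-value and those of the alternatives may therefore not be independent of the choice. Over 24 alternatives the Huh-7 value ranged from 2.39 to 5.67, and where the alternative gave a test its adjusted p lay between 9.74e-119 and 9.32e-11. The HCC-LM3 difference minus the Huh-7 difference was −6.98 (SE 0.24, not tested), the 9th lowest of all genes. In wild-type cells CMC1 was 6.501-fold higher in HCC-LM3 than in Huh-7 (log2 2.71, SE 0.17, not tested).

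The ranking of the 2 high groups depended on the scale, while the direction within each line did not. With library totals, CMC1 stood at 18.3, 18.0 and 18.1 CPM in HCC-LM3 wild type and at 12.9, 11.3 and 13.4 CPM in Huh-7 knockout. The deposited TPM values were 22.85, 25.33 and 22.47 against 18.81, 16.53 and 19.16. On both of these scales HCC-LM3 wild type was the highest group, by 1.45-fold and 1.30-fold, whereas with TMM scaling Huh-7 knockout was the highest, by 1.99-fold. The fall in HCC-LM3 was 10.8-fold with library totals and 13.1-fold in TPM, and the rise in Huh-7 was 5.99-fold and 5.24-fold. The TMM factor of a library was 1.33 to 1.51 for HCC-LM3 wild type and 0.491 to 0.51 for Huh-7 knockout, so that this scaling lowered the former and raised the latter.

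**Figure D2:**
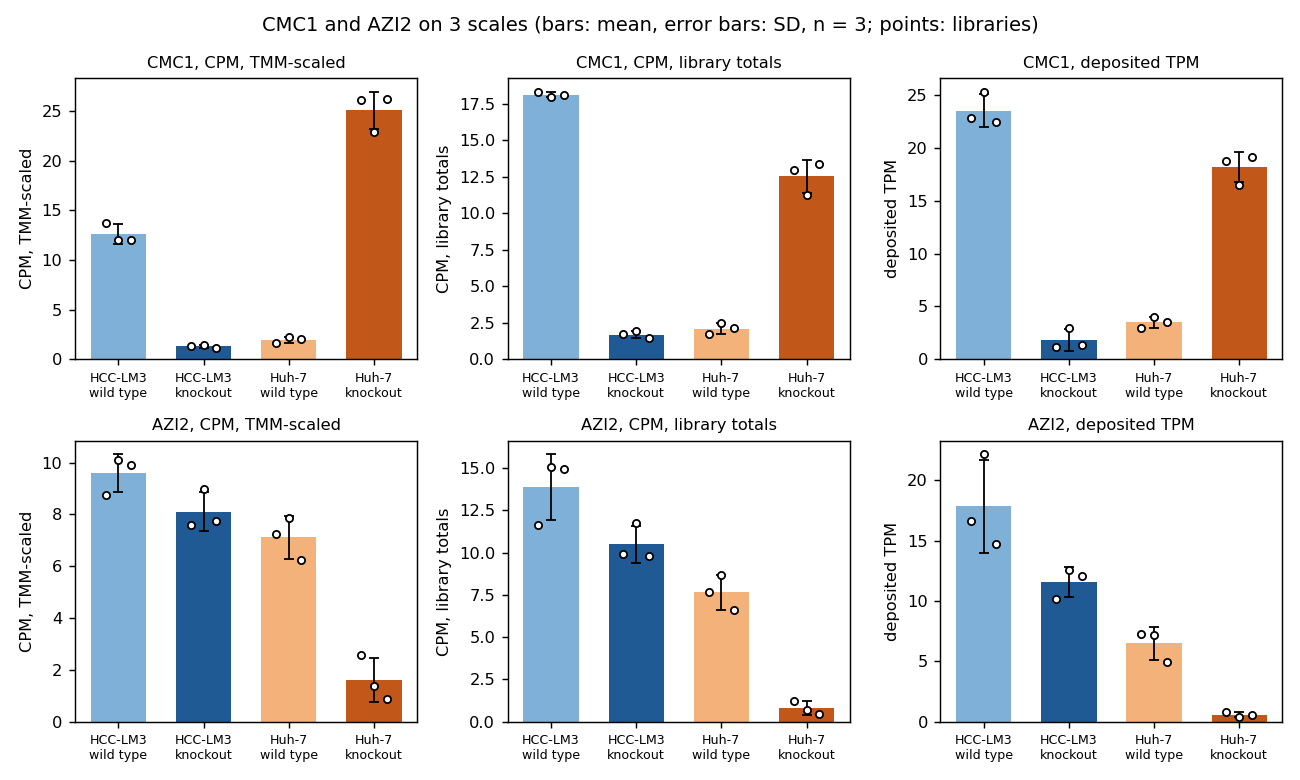
CMC1 (top) and AZI2 (bottom) in the 4 groups (x) on 3 linear scales (y): CPM after TMM scaling, CPM of library totals, and deposited TPM; bars are means, error bars SD (n = 3) and points libraries. CMC1 is low in HCC-LM3 knockout and Huh-7 wild type on each scale, and AZI2 is lowest in Huh-7 knockout on each scale.

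AZI2 (ENSG00000163512, chromosome 3 from 28315003 to 28349127 on the minus strand) did not follow CMC1. It held 8.75, 10.1 and 9.90 CPM in HCC-LM3 wild type and 7.59, 8.97 and 7.74 in knockout, which overlap (log2 fold change −0.25, SE 0.16, not tested). In Huh-7 it stood at 7.24, 7.88 and 6.23 CPM in wild type and at 2.56, 1.40 and 0.879 in knockout. Every knockout library was lower, on few reads: 25.59, 12 and 8 counts. AZI2 fell by 2.11 on the log2 scale there (SE 0.24, adjusted p = 1.94e-09, edgeR, lower in 3 of 3 knockout libraries). With offsets for GC content and the deposited gene length the value was −0.51 and did not pass the test (adjusted p = 0.074, the highest of the alternatives, of which the lowest gave 3.58e-20). That deposited length, 4403 bases, is far above the 741 to 1440 bases that count and TPM give for AZI2 below. In the same Huh-7 libraries, then, the count of CMC1 was up and that of AZI2 down.

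The genes lie on opposite strands and run towards each other. Their spans share 10140 bases, and 3520 of these are exonic in both. The strand setting of the counting is not given in the sources used here, so reads from the shared stretch could be assigned to either gene, and the values of both are uncertain to that extent. Rows named as pseudogenes of CMC1 numbered 3 and held at most 8 counts in a library, against 37.68 or more for CMC1 itself.

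The ratio of count to TPM in a library, put through a straight line fitted for that library, gives the transcript length that the authors' counting assumed for a gene. This measure was chosen after the data had been seen. The line was fitted on genes with a single annotated transcript. On those same genes it left a median error of 0.0957% to 0.222% per library, which describes the fit and is not a separate check. For CMC1, whose deposited length is 6033 bases, it was 1095, 1060 and 1155 bases in HCC-LM3 wild type, 758, 809 and 794 in Huh-7 wild type, and 674, 670 and 688 in Huh-7 knockout. The 3 HCC-LM3 knockout libraries, with about 40 counts each, gave 1909, 952 and 1394 bases and did not agree among themselves. In all 12 libraries the counting thus weighted CMC1 towards transcripts well below the longest annotated one (6033 bases; 11 transcripts, the shortest 446), and in Huh-7 the knockout libraries lay below the wild-type ones. AZI2 (deposited length 4403 bases) gave 741 to 1440 bases. COA3, by contrast, gave 779 to 782 bases in all 12 libraries.

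Of the partners of CMC1 on newly made COX1, COX14 fell in HCC-LM3 knockout by a small amount and COA3 did not pass the test. COA3 (ENSG00000183978, chromosome 17 from 42795147 to 42798704, minus strand) held 24.9, 19.8 and 22.4 CPM in wild type and 21.9, 22.6 and 23.7 in knockout. These ranges overlap, and the log2 fold change of 0.03 did not pass the test (95% interval −0.20 to 0.25, adjusted p = 0.898, edgeR); its sign was negative with library totals (−0.12). COX14 (ENSG00000178449, chromosome 12 from 50111979 to 50120457, plus strand) held 25.2, 17.2 and 18.4 CPM in wild type and 15.8, 14.002 and 15.5 in knockout. It fell by 0.42 (SE 0.11, adjusted p = 0.00594, edgeR), with every knockout library below every wild-type library, and by 0.24 without wild-type replicate 1, its highest library (the smallest of all alternatives, whose adjusted p ranged from 3.05e-06 to 0.0396).

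In Huh-7 both partners were higher in the knockout. COA3 went from 64.5, 65.9 and 59.5 CPM to 232.7, 220.3 and 200.9, a log2 change of 1.78 (SE 0.10, adjusted p = 1.66e-17, edgeR). COX14 went from 41.7, 41.5 and 37.0 CPM to 166.6, 182.1 and 177.7, a log2 change of 2.13 (SE 0.11, adjusted p = 9.02e-18, edgeR). For each gene all 3 knockout libraries lay above all wild-type libraries. In TPM the same libraries differed less: COA3 had 114.45, 122.29 and 107.71 in wild type and 133.63, 125.15 and 120.66 in knockout, 1.10-fold, and COX14 was 1.43-fold higher. The TPM ranges of COA3 overlap. With offsets for GC content and implied transcript length, given below, COA3 was at 0.12 and did not pass the test (adjusted p = 0.154, edgeR).

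COX17 (ENSG00000138495, chromosome 3 from 119654513 to 119677454, minus strand), the copper chaperone of the intermembrane space, differed within its spread in HCC-LM3. It held 21.2, 15.8 and 17.0 CPM in wild type and 15.9, 12.8 and 16.9 in knockout, which overlap (−0.24, 95% interval −0.52 to 0.04, adjusted p = 0.155, edgeR). In Huh-7 it went from 35.9, 36.4 and 29.1 CPM to 131.8, 117.2 and 106.6 (1.81, SE 0.12, adjusted p = 2.6e-14), without overlap. In TPM the Huh-7 ratio was 1.12, with 66.45 to 85.86 in wild type and 81.12 to 96.52 in knockout, which overlap.

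SCO1 (ENSG00000133028, chromosome 17 from 10672474 to 10698375, minus strand), which receives copper from COX17, went the other way in Huh-7. Wild-type libraries held 15.6, 19.0 and 17.2 CPM and knockout libraries 2.76, 2.33 and 2.75, on 28, 20 and 25 counts. It fell by 2.71 on the log2 scale (SE 0.16, adjusted p = 3.18e-16, edgeR, lower in 3 of 3 knockout libraries), by 3.82 with library totals and by 0.99 with offsets for GC and gene length (adjusted p = 1.1e-05). In TPM it was 11.7-fold lower. In HCC-LM3 it stood at 34.01, 39.1 and 35.5 CPM in wild type and 35.1, 31.2 and 34.4 in knockout, and did not pass the test (−0.11, 95% interval −0.35 to 0.13, adjusted p = 0.479). The chaperones COX17 and SCO1 thus differed in opposite directions in Huh-7 knockout cells. SCO2, from the list of other assembly factors below, rose there by 2.07 (adjusted p = 2.48e-19, edgeR).

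CMC2 (ENSG00000103121, chromosome 16 from 80966448 to 81020270, minus strand), the relative of CMC1, was slightly lower in HCC-LM3 knockout and did not pass the test. It held 57.1, 47.8 and 48.5 CPM in wild type and 41.8, 39.8 and 46.3 in knockout, without overlap (−0.26, 95% interval −0.50 to −0.03, adjusted p = 0.0561, edgeR). The test passed with library totals (−0.41, adjusted p = 0.00443). In Huh-7 CMC2 went from 28.8, 31.1 and 22.7 CPM to 82.6, 86.5 and 80.1 (1.59, SE 0.11, adjusted p = 7.26e-15), while its TPM values overlapped, with 56.16, 64.8 and 44.81 in wild type and 50.65, 53.78 and 56.24 in knockout, a ratio of 0.969. That call ended with offsets for gene length (adjusted p = 0.0642, edgeR). Those offsets use the deposited length of 481 bases, whereas count and TPM imply 692 bases for CMC2. Exons of CMC2 share 457 bases with CENPN on the other strand. Those of COA3 share 816 bases with WNK4 and those of SURF1 119 with SURF2, also on the other strand. Those of COX17 share 383 bases with POPDC2 on the same strand.

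COX10 and COX15 make heme A in 2 consecutive steps, and neither was called higher in Huh-7 knockout with TMM scaling. COX10 (ENSG00000006695, chromosome 17 from 14069496 to 14208677, plus strand) held 26.9, 23.5 and 25.0 CPM in Huh-7 wild type and 15.2, 14.1 and 17.7 in knockout. It fell by 0.68 (SE 0.12, adjusted p = 8.43e-06, edgeR), without overlap. With DESeq2 size factors the value was −0.24 and did not pass (adjusted p = 0.0757, the highest of the alternatives, of which the lowest gave 4.55e-11). In TPM it was 5.02-fold lower, with 9.74, 9.27 and 9.7 against 1.72, 1.82 and 2.18. In HCC-LM3 its libraries held 21.3 to 25.6 CPM in wild type and 25.1 to 26.04 in knockout (0.16, 95% interval −0.09 to 0.42, adjusted p = 0.281).

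COX15 (ENSG00000014919, chromosome 10 from 99711844 to 99732100, minus strand) was the factor with the smallest difference in Huh-7 CPM. Wild type held 15.3, 14.97 and 14.4 CPM and knockout 14.5, 11.7 and 14.6, which overlap (−0.13, 95% interval −0.41 to 0.15, adjusted p = 0.343, edgeR). The sign of that value depended on the scale, at 0.31 with DESeq2 size factors (adjusted p = 0.0241) and −1.24 with library totals (adjusted p = 9.83e-09). In TPM COX15 was 3.52-fold lower in the knockout, with 6.15, 6.25 and 6.39 against 1.91, 1.46 and 1.97. In HCC-LM3 it held 35.8, 36.7 and 32.5 CPM in wild type and 40.1, 38.0 and 39.1 in knockout, without overlap but short of the test (0.16, 95% interval −0.07 to 0.39, adjusted p = 0.256). Exons of COX15 share 1069 bases with an annotated protein-coding gene on the same strand, AL133353.2, which held 481.28 counts over the 12 libraries.

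SURF1 (ENSG00000148290, chromosome 9 from 133351755 to 133356676, minus strand), a factor of the inner membrane whose loss causes Leigh syndrome, was higher in the knockout of both lines. In HCC-LM3 it went from 25.2, 20.6 and 20.4 CPM to 28.9, 32.6 and 32.7, a log2 change of 0.51 (SE 0.10, adjusted p = 0.000295, edgeR). In Huh-7 it went from 87.0, 96.4 and 90.8 CPM to 407.25, 399.1 and 382.2, a log2 change of 2.12 (SE 0.10, adjusted p = 5.85e-19). All knockout libraries lay above all wild-type libraries in each line. In TPM, SURF1 was 1.22-fold higher in HCC-LM3 knockout and 1.37-fold higher in Huh-7 knockout, also without overlap (46.04 to 47.83 against 53.34 to 60.11, and 98.59 to 113.57 against 142.54 to 147.62). Its HCC-LM3 call held under each alternative that gave a test, with adjusted p from 1.81e-06 to 0.00599.

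Counted over the 8 factors other than CMC1 and AZI2, 2 passed the test in HCC-LM3, SURF1 higher and COX14 lower, against 26.8% of all genes. Their libraries did not overlap for 4 of 8 in HCC-LM3, against 38.7% of all genes (20.5% higher and 18.2% lower): COX14 and CMC2 were lower, SURF1 and COX15 higher. With library totals 4 passed (COX14, CMC2 and COX17 lower, SURF1 higher). In Huh-7 7 of 8 passed, 5 higher (CMC2, COA3, COX14, COX17 and SURF1) and 2 lower (SCO1 and COX10), against 31.7% of all genes called higher and 43.2% called lower. Libraries did not overlap for the same 7, against 76.5% of all genes (32.3% higher and 44.2% lower). Taken in either direction, 2 of 8 and 7 of 8 are near the 26.8% and 75% of all genes called. Whether the Huh-7 split of 5 higher and 2 lower differs from that of all genes was not tested.

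**Figure D3:**
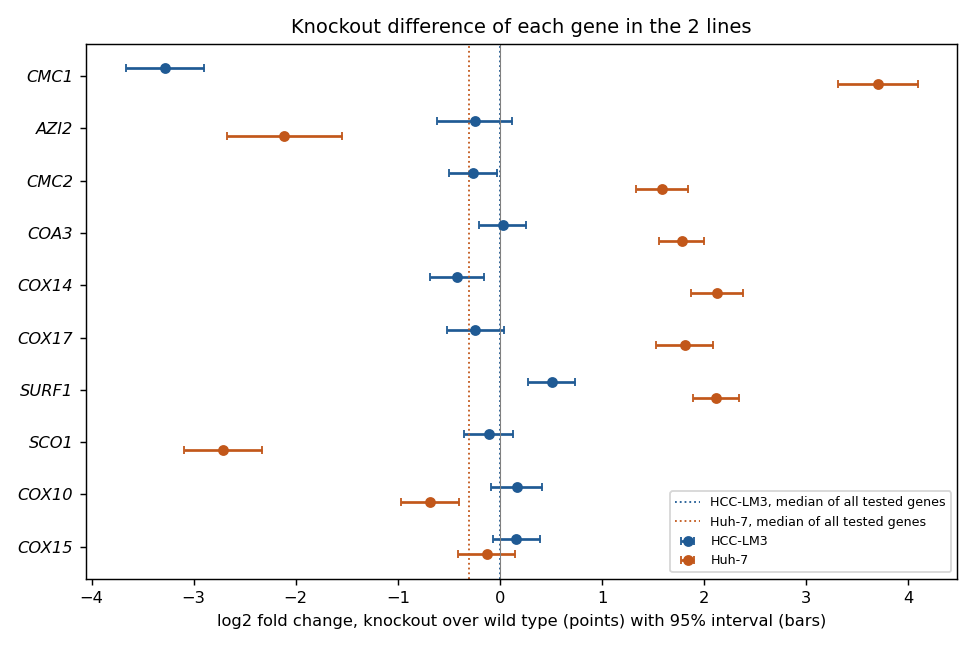
Log2 fold change of knockout over wild type (x) for each of the 10 genes (y) in HCC-LM3 (blue) and Huh-7 (orange); bars are 95% intervals and dotted lines the median of all tested genes. CMC1 lies at −3.28 and 3.70, while the other 9 genes lie between −0.42 and 0.51 in HCC-LM3.

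Transcript length moved with the Huh-7 difference over all genes. Grouped by the length implied by count and TPM, the median log2 fold change was 1.80 for the 568 genes under 600 bases, 1.42 for 1559 genes of 600 to 1000 bases and 0.54 for 5103 genes of 1000 to 2000 bases. It was −0.76 for 6344 genes of 2000 to 4000 bases, −1.96 for 2616 genes of 4000 to 8000 bases and −2.69 for 347 longer ones. In HCC-LM3 the same medians lay between −0.04 and 0.04. Genes for which no implied length could be derived were placed by their deposited length. The assembly factors called higher in Huh-7 have implied lengths of 497 (COX14), 664 (COX17), 692 (CMC2), 780 (COA3) and 1053 bases (SURF1), and the other 3 have 2540 (COX10), 2556 (COX15) and 3054 bases (SCO1).

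GC content moved with the difference too. From genes under 40% GC to genes over 60% GC the median rose from −0.42 to 0.30 in HCC-LM3 and from −1.94 to 0.71 in Huh-7. With offsets for GC content and implied length, an alternative added after the data had been seen, the Huh-7 values were 0.98 for CMC2, 0.12 for COA3, 0.28 for COX14, 1.09 for COX17, 0.64 for SURF1, −1.67 for SCO1, −0.24 for COX10 and 0.53 for COX15. COA3 (adjusted p = 0.154, edgeR) and COX10 (adjusted p = 0.0636) no longer passed, and COX15 passed with the opposite sign (adjusted p = 9.77e-05). CMC1 kept 3.59 in Huh-7 with these offsets (adjusted p = 2.01e-17) and −2.93 in HCC-LM3. Of the genes of 600 to 1000 bases, 9 in 10 lay under 2.25 in Huh-7, and CMC1 was at 3.70. Its implied length of 880 bases is the median of library values from 670 to 1909. The part of length in the CMC1 value was not tested.

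**Figure D4:**
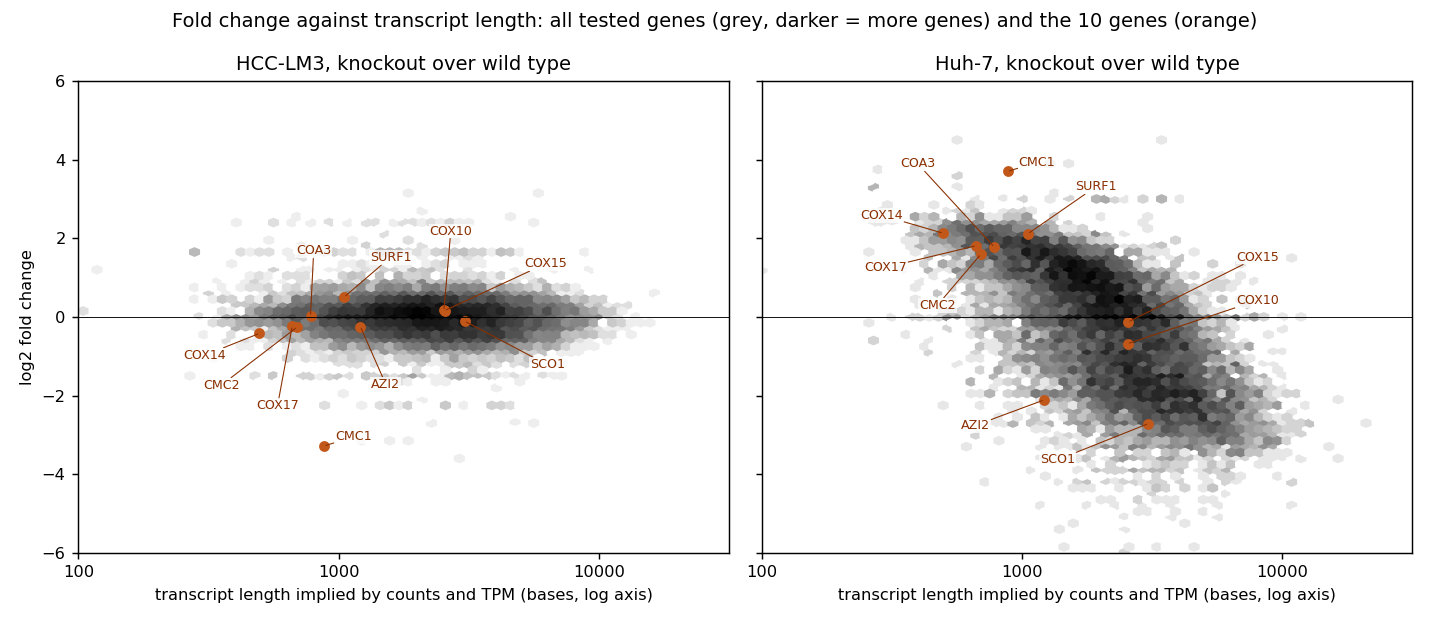
Log2 fold change of knockout over wild type (y) against the transcript length implied by counts and TPM (x, bases, log axis) in HCC-LM3 (left) and Huh-7 (right); grey cells are all tested genes, darker for more genes, and orange points the 10 genes. In Huh-7 the cloud falls from a median of 1.80 under 600 bases to −2.69 over 8000 bases, and CMC1 at 3.70 lies above most of it. In HCC-LM3 the cloud is flat and CMC1 at −3.28 lies below most of it. Genes without an implied length are placed at their deposited length.

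The knockout difference was set against itself between lines by the interaction term, the HCC-LM3 difference minus the Huh-7 difference, for which 61.6% of all genes were called (37.7% as positive and 23.9% as negative). Positive values made up 61.2% of these calls, 48.9% with DESeq2 size factors and 85.8% with library totals. It passed for 7 of 8 factors. The value was negative, so that the knockout was higher relative to wild type in Huh-7 than in HCC-LM3, for COX14 (−2.55, adjusted p = 3.57e-15, edgeR), COX17 (−2.05), CMC2 (−1.85), COA3 (−1.76) and SURF1 (−1.61). It was positive for SCO1 (2.61, adjusted p = 3.51e-13) and COX10 (0.85, adjusted p = 3.53e-05), and did not pass for COX15 (0.29, 95% interval −0.08 to 0.65, adjusted p = 0.114). With GC and implied-length offsets the 7 stayed called with the same sign, with values from −1.22 for COX17 to 1.67 for SCO1 and the smallest for COA3 (−0.27, adjusted p = 0.035). As TPM ratios, which gave no test, CMC2 was at −0.29, COX17 at −0.58 and SURF1 at −0.17, their smallest sizes among the alternatives. COX10 was at 2.22 in TPM, its largest. For AZI2 the interaction value with TMM scaling was 1.87 (SE 0.30, not tested).

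The wild-type lines differed for most factors before any knockout, as 82.8% of all genes did (41.8% higher and 41% lower in HCC-LM3). Those libraries also serve as controls of the knockout comparisons. HCC-LM3 was higher for COX15 (log2 1.23, adjusted p = 1.39e-12, edgeR), SCO1 (1.07) and CMC2 (0.89), and lower for SURF1 (−2.05, adjusted p = 3.53e-19), COA3 (−1.50), COX14 (−0.99) and COX17 (−0.91). COX10 did not pass the test (−0.14, 95% interval −0.40 to 0.11, adjusted p = 0.23), and its sign turned with library totals (0.28, adjusted p = 0.0167). With GC and implied-length offsets it was called lower (−0.45, adjusted p = 8.47e-05), as it was with GC and gene length (−0.35, adjusted p = 0.00168). Of the 7 calls, that of COX14 ended with GC and implied-length offsets (0.12, adjusted p = 0.183).

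Between genes, levels can be set side by side only per length. In HCC-LM3 wild type the mean TPM was 199.7 for CMC2, 139.2 for COX14, 73.3 for COX17, 68.4 for COA3 and 46.8 for SURF1, followed by CMC1 at 23.6, COX15 at 23.5, SCO1 at 21.3, COX10 at 18.1 and AZI2 at 17.8. CMC1 lay within the spread of COX15 and SCO1 there. In HCC-LM3 knockout CMC1 was the lowest of the 10 at 1.80 ± 1.03 TPM (SD, n = 3), with COX10 at 16.75 and AZI2 at 11.6. In Huh-7 wild type COX14 (161.2), COA3 (114.8) and SURF1 (105.4) were the highest, and CMC1 (3.47) and SCO1 (3.82) the lowest, with overlapping ranges. In Huh-7 knockout CMC1 stood at 18.2 TPM, above COX10 (1.91), COX15 (1.78), AZI2 (0.573) and SCO1 (0.327) and below CMC2 (53.6) and the other short factors.

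The wider machinery was read from lists of genes with related roles, each given by its counts. The shares of all genes to read them against are 14% higher and 12.9% lower in HCC-LM3 (26.8% in all), and 31.7% higher and 43.2% lower in Huh-7 (75% in all). These shares are not matched for transcript length, which moved with the Huh-7 difference over all genes. The part of length in the list values was not tested. Of 22 other assembly factors, 2 were higher and 9 lower in HCC-LM3 knockout, with a median log2 fold change of −0.24 (0.00 for all genes). LRPPRC, which stabilises mitochondrial mRNAs, fell by 0.79 (adjusted p = 3.65e-06, edgeR), HIGD1A, an oxidase-binding protein of the inner membrane, by 0.68, TIMM21, which links protein import to assembly, by 0.60 and SMIM20, which binds COX1, by 0.44. The count called was 7 without any single one of wild-type replicate 2 or knockout replicates 1, 2 and 3, and 6 or 7 of those 7 were lower. Without wild-type replicate 1, 3 were higher and 7 lower. With library totals 12 were lower and 0 higher. In Huh-7 16 of the 22 were higher and 3 lower (31.7% and 43.2% of all genes), with a median of 0.93 against −0.30. PET100 rose by 2.23 (adjusted p = 2.18e-14), SCO2 by 2.07 and FDX2, a mitochondrial ferredoxin, by 1.99, and LRPPRC fell by 2.18 (adjusted p = 1.24e-15). With library totals 8 were higher and 11 lower, and in TPM 16 of the 22 means were lower in the knockout.

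The nuclear subunits of the oxidase itself, of which 12 of 16 listed were tested, gave 0 calls in HCC-LM3 in edgeR, with 4 at an unadjusted p under 0.05 and a median of 0.08 (26.8% of all genes were called). DESeq2 and limma-voom called 0 as well. Without wild-type replicate 1, 7 of them were called and all 7 were higher, whereas with library totals 2 were called and both were lower. In Huh-7 all 12 were higher, against 31.7% of all genes, with a median of 2.10, among them NDUFA4 (2.48, adjusted p = 4.68e-19), COX6A1 (2.42), COX7B (2.39) and COX7A2 (2.35). Library totals left 11 higher, and in TPM 10 of 12 means were higher, with a median log2 ratio of 0.46. Beside the median of 2.10, all genes with implied lengths under 600 bases had a Huh-7 median of 1.80. Those of 600 to 1000 bases had 1.42. A rise of these subunits apart from that of short genes was not tested. The mitochondrially encoded subunits MT-CO1, MT-CO2 and MT-CO3 were at 0.96, 1.31 and 1.25 in Huh-7 (all called higher; 2 with library totals), but all 3 were lower in TPM. In HCC-LM3 MT-CO1 alone was called (0.35, adjusted p = 0.014), a call that ended without knockout replicate 1 or 2; 2 of the 3 were called without wild-type replicate 1, by DESeq2 and by limma-voom, and 0 with library totals.

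CMC1 and CMC2 share the twin CX9C fold with other proteins imported by the CHCHD4 and GFER relay. Of 16 genes of these proteins and their import, 2 were higher (GFER 0.35, CHCHD10 0.32) and 1 lower (CHCHD7 −0.57) in HCC-LM3, and 13 were higher and 2 lower in Huh-7, beside 26.8% and 75% of all genes called in the 2 lines. With library totals 0 were higher and 4 lower in HCC-LM3, and 9 higher and 4 lower in Huh-7. Leaving out wild-type replicate 1 gave 7 calls in HCC-LM3, and leaving out wild-type replicates 2 or 3 or knockout replicates 2 or 3 gave 1. In Huh-7 the largest values were those of NDUFB7 (2.20), CHCHD5 (2.19), CHCHD6 (2.05) and CHCHD2 (2.03). In TPM 9 of the 16 were higher and 7 lower, with a median log2 ratio of 0.17. A rise of these genes apart from that of short genes was not tested either.

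Of 10 genes of heme synthesis, which feeds COX10 (enzymes and mitochondrial carriers), 2 were higher in HCC-LM3 (ALAS1 0.35, the first enzyme of the path, and ALAD 0.32) and 1 lower (CPOX −0.53). Without wild-type replicate 1 the count was 6. In Huh-7 7 were higher and 1 lower, among the former UROD (1.69, adjusted p = 3.65e-16, edgeR). The 3 and 8 of 10 called are near the 26.8% and 75% of all genes. The Huh-7 split was 4 and 4 with library totals, and 8 of 10 means were lower in TPM. Of 9 genes of copper handling, CCS, the chaperone of superoxide dismutase (0.43, adjusted p = 0.00156), and STEAP3 (0.23, adjusted p = 0.0486) were called higher in HCC-LM3. The count was 1 when any library other than HCC-LM3 wild-type replicate 1 or Huh-7 wild-type replicates 2 and 3 was left out. The 2 of 9 called are near the 26.8% of all genes. In Huh-7 5 were higher and 3 lower (31.7% and 43.2% of all genes): the chaperone ATOX1 rose (1.85), the importer SLC31A1 fell (−1.47) and the exporter ATP7B fell (−2.54). With library totals 2 were higher and 4 lower, and in TPM 7 of 9 means were lower.

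AZI2 works with TBK1, so the genes of that path were listed as well. Of 12, 3 were higher and 2 lower in HCC-LM3: IRF7 rose by 0.83 (adjusted p = 4.01e-05, edgeR) and the adaptor TICAM1 by 0.49, while the kinase TBK1 fell by 0.74 (adjusted p = 0.00146) and its adaptor TANK by 0.61. Leaving out wild-type replicate 1 gave 6 calls in place of 5, and leaving out replicate 3 gave 3. There were 2 with GC and gene-length offsets and 3 with GC and implied length. In Huh-7 3 were higher and 6 lower, with a median of −0.38 against −0.30 for all genes. These 9 of 12 equal the 75% of all genes called, and GC offsets left 5 (gene length) or 4 (implied length). TBK1 fell by 1.83, TANK by 1.75 and MAVS by 1.47. CGAS, also among the 6, was kept by the filter through HCC-LM3 and held 7.67, 5 and 8 counts in Huh-7 wild type and 2, 0 and 0 in knockout, too few to describe a change. STING1, among the 3 higher, was kept in the same way. It held 3, 2 and 4 counts in Huh-7 wild type and 6, 0 and 7 in knockout, also too few. With library totals no gene of this list was called higher in Huh-7, and in TPM all 12 means were lower.

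Of the other genes around CMC1 on chromosome 3, none of those tested was called lower in HCC-LM3 or higher in Huh-7. Of 7 neighbours, EOMES, ZCWPW2 and GADL1 had too few counts to be tested. NEK10, SLC4A7, RBMS3 and TGFBR2 gave 0 calls in HCC-LM3 in edgeR and 0 at an unadjusted p under 0.05, and 0 in DESeq2 and limma-voom, with values of −0.42, 0.11, −0.06 and −0.14. The SE was 0.37 for both NEK10 and RBMS3, which had few counts. With GC and length offsets 1 of the 4 was called, as higher. In Huh-7 SLC4A7 fell by 2.70 (adjusted p = 9.13e-08), NEK10 by 4.18 on few counts (adjusted p = 0.000243) and TGFBR2 by 1.70 (adjusted p = 9.31e-12), and RBMS3 was at 0.00 with an SE of 1.13. RBMS3 held 2, 2 and 1 counts in Huh-7 wild type and 2, 0 and 0 in knockout, too few to describe a change. The 3 of 4 called in Huh-7 equal the 75% of all genes called there. The 0 of 4 in HCC-LM3 stand beside 26.8% of all genes, and 4 genes are too few to set apart from that share.

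CMC1 was compared with 12362 protein-coding genes over the 12 libraries, and ALYREF, which helps export mRNA from the nucleus, came closest to its profile. Likeness was the root-mean-square difference of centred log2 CPM, which was 0.852 for ALYREF, 1.04 for AADAT, 1.09 for ANKRD54 and 1.11 for ISG15, beside a spread of CMC1 itself of 1.77. ALYREF held 120.0, 90.1 and 96.2 CPM in HCC-LM3 wild type, 5.96, 6.48 and 5.02 in its knockout, 10.7, 11.8 and 12.6 in Huh-7 wild type and 513.4, 536.5 and 498.8 in its knockout. On this TMM scale its groups fall in the same order as those of CMC1, whose 2 high groups change places with library totals and in TPM. AADAT, an aminotransferase of tryptophan and lysine breakdown, was likewise low in HCC-LM3 knockout (0.919 to 1.00 CPM against 3.87 to 4.58) and higher in Huh-7 knockout (2.42 to 3.50 against 0.438 to 0.951). ANKRD54 and the interferon-induced ISG15 followed mainly the Huh-7 part of the profile.

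**Figure D5:**
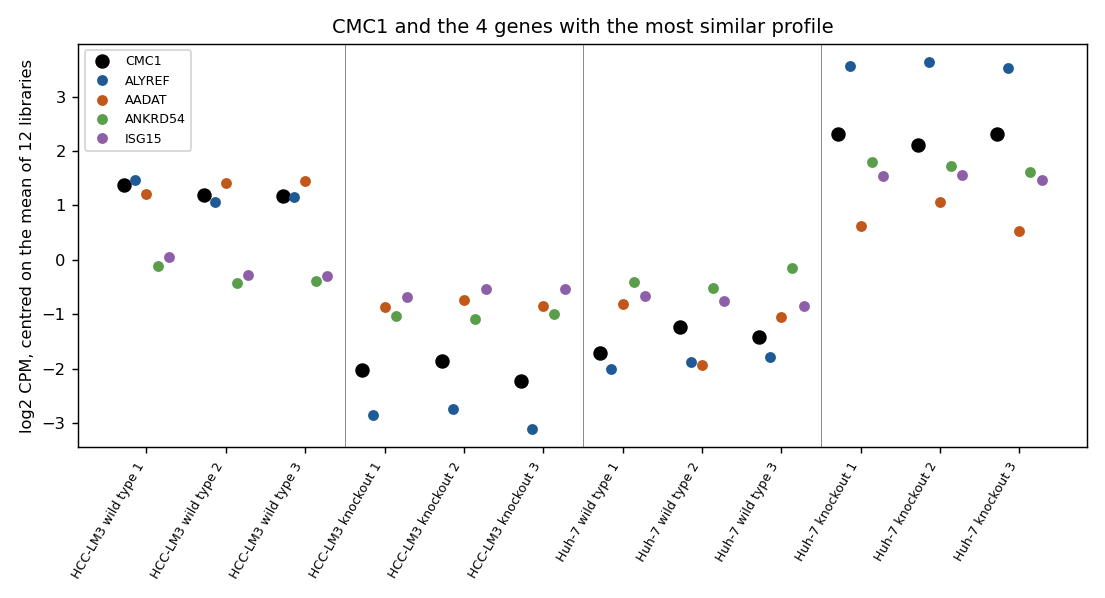
Log2 CPM centred on each gene's mean over the 12 libraries (y) in every library (x) for CMC1 (black) and the 4 genes with the most similar profile. ALYREF tracks CMC1 in all 4 groups with a wider range, while ANKRD54 and ISG15 differ from CMC1 in HCC-LM3 wild type and are high in Huh-7 knockout.

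The crossed pattern, lower in all HCC-LM3 knockout libraries and higher in all Huh-7 knockout libraries than in the matching wild type, was found for 448 of 16537 genes (18.2% of all genes were lower without overlap in HCC-LM3 and 32.3% higher in Huh-7). Absolute log2 fold changes of at least 1 in both lines were reached by 24 of them and of at least 3 in both lines by 2, ALYREF (−4.13 and 5.47) and CMC1 (−3.28 and 3.70). None of the 8 factors was among the 24. Since CMC1 was chosen on the HCC-LM3 fall, its place among them is a description.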

How the data were processed

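RNA sequencing was done on HCC-LM3 and Huh-7 cells, wild type and METTL5 knockout, with total RNA taken by TRIzol and read on an Illumina NovaSeq, per the labels' protocols. Sample titles gave groups and replicate numbers. For each gene and library the deposited table holds the authors' expected count, which is an estimated count without normalisation, and the authors' TPM, per the file headers. Of the expected counts, 7.49% to 13.3% per library were not whole. TPM columns sum to 977632 to 998831. The submitters' processing notes name Bowtie 0.12.2 with mm8 and mm9, builds of the mouse genome, although the gene identifiers are human. Which counter, strand setting, human build and annotation were used is not given in the sources used here.

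Expected counts were rounded and tested in R 4.3.3 with edgeR 4.0.16. The filter filterByExpr left 16537 genes, TMM set the scale, and the robust quasi-likelihood fit had a mean for each group over all 12 libraries (8 residual degrees of freedom). Tests were two-sided, and calls needed an adjusted p (Benjamini-Hochberg, all tested genes) under 0.05. Standard errors came from F statistics. A permutation test of 3 libraries against 3 cannot go under p = 0.1 and was not used. The fits were run on simulated counts in which few genes changed, as many up as down. That setting does not cover the Huh-7 data, where most genes were called and directions moved with the scale. Coordinates came from GENCODE 29 on GRCh38 and promoter windows from RefSeq on GRCh38.p14. Implied transcript length needed a TPM of at least 0.5, and the deposited length stood in where none could be derived.

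Alternatives were DESeq2 size factors, library totals, the Wald test of DESeq2 1.42.0, limma-voom (limma 3.58.1), 2 other filters, each line alone, a replicate block, offsets for length and GC content (GC known for 99.7% of tested genes), TPM ratios and leaving out each library. The members, gene lists and naming rule were chosen with earlier results of these data known. Named genes are the 10 members, METTL5, the neighbours of CMC1, the 4 protein-coding genes most like CMC1 (mean CPM 1 or more), and up to 4 called genes per list and comparison with the largest absolute change.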

Additional observations from a re-analysis of the deposited data

Results flagged for a closer look

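For 7 of the 8 assembly factors the knockout difference differed between the lines by the interaction term in edgeR's quasi-likelihood test (HCC-LM3 log2 difference minus Huh-7 log2 difference, 3 libraries per group), where 61.6% of all genes did. The value was −1.85 for CMC2, −1.76 for COA3, −2.55 for COX14, −2.05 for COX17, −1.61 for SURF1, 2.61 for SCO1 and 0.85 for COX10. For CMC1 it was −6.98: every HCC-LM3 knockout library was lower and every Huh-7 knockout library higher than its wild type, and this difference was not tested because the HCC-LM3 part chose the gene. Transcript length and GC content moved with the Huh-7 differences of all genes. With offsets for GC content and implied length the values were −1.09, −0.27, −0.92, −1.22, −0.33, 1.67 and 0.41 for the 7 factors in the same order and −6.53 for CMC1.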

How the results depend on the processing

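Of the 8 assembly factors, 2 were called in HCC-LM3, 4 with library totals and 4 with gene-length offsets, and 2 to 3 without single libraries. The number of genes called, HCC-LM3 knockout against wild type, was 4440, and GC and gene-length offsets gave 2944. Leaving out a wild-type library gave 6136 (replicate 1), 2832 (replicate 2) or 2743 (replicate 3). COX15 in Huh-7 turned to 0.31 with DESeq2 size factors and 0.31 in its Wald test, 0.12 with GC and gene-length offsets and 0.53 with GC and implied-length offsets. Its interaction value turned to −0.12, −0.12 and, with implied length, −0.31. COA3 in HCC-LM3 turned to −0.12 with library totals, −0.15 with GC and gene-length offsets, −0.028 with length offsets and −0.15 with GC and implied length, and ranged from −0.063 to 0.10 without single libraries. AZI2 in HCC-LM3 was 0.070 with GC and gene-length offsets and 0.074 with GC and implied length. Between wild-type lines COX10 was 0.28 with library totals and COX14 0.12 with GC and implied length. CMC2 in Huh-7 was −0.045 as a TPM ratio, and its call ended with length offsets (0.21, adjusted p = 0.0642, edgeR). The cause of these changes was not tested. CMC1 in Huh-7 stayed called under every alternative with a test, at 3.56 to 3.87 without single libraries. Replicate numbers showed no sign of pairing: same-numbered deviations correlated at −0.106 to 0.083 and different-numbered ones at −0.142 to 0.183. With 3 libraries per group this cannot exclude pairing. With a replicate block 3990 genes were called in HCC-LM3 and 12251 in Huh-7, and 2 and 7 assembly factors. Depth limits AZI2 and SCO1 in Huh-7 knockout, at 8 to 28 counts.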
